A study of Homo sapiens with 6 samples.

Results

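The genes described here are 9 keratins of HCT116, an established human colorectal cancer line of epithelial origin: KRT7, KRT8, KRT18, KRT19, KRT20, KRT15, KRT17, KRT23 and KRT80. They were given as a fixed list of symbols and are 9 of the 20263 genes in the deposited table, which holds 55 keratin genes in all. The members were chosen with the differences between these WT and CSE samples in view, that is, selected on log2 fold changes in TPM of the same contrast. The differences of these 9 genes between the groups are therefore a description, and the calls given for them support nothing further. The table holds TPM, a length-corrected share of the transcripts in a library, from poly(A) RNA-seq of 3 wild-type (WT) HCT116 samples and 3 HCT116 samples treated with CSE. The labels do not spell out CSE, and with smoking named in the series title it is read here as cigarette smoke extract. No dose, exposure time or vehicle is given in the sources used here, and the labels do not state whether replicates were grown separately. The p-values below therefore rest on sample-to-sample spread that may be technical.

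Keratins are the intermediate filament proteins of epithelial cells. A filament is built from pairs in which a type I (acidic) keratin joins a type II (basic) keratin, so the balance of the types matters to the cell. KRT8 and KRT18 are the founding pair of simple, single-layered epithelia such as the gut lining, where KRT19 and KRT20 add further type I chains and KRT7 a type II chain in many ducts and glands. KRT15 belongs to basal cells of stratified epithelia, and KRT17 is induced in skin by wounding and stress. KRT23 is a type I keratin known for its induction by histone deacetylase inhibitors in digestive tract cancer cells, and KRT80 is a type II keratin found across many epithelia. Here KRT7, KRT8, KRT18, KRT19 and KRT20 are called simple keratins, KRT15 and KRT17 stratified and stress keratins, and KRT23 and KRT80 are put in neither class.

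The members are close relatives, and the stretches below are shown because they are where the type I members are most alike and where short reads could be assigned to the wrong keratin. For type I, the 60 coding bases of the most abundant member, KRT19, that are best matched in the other type I members were located in the GENCODE 29 transcripts (GRCh38). All are coding sequence, 5' to 3', and capitals mark bases that differ from KRT19. The stretch lies in exon 2 of KRT23 (minus strand, chr17:40936322-40936381) and in exon 1 of the others: KRT19 (minus strand, chr17:41527942-41528001), KRT17 (minus strand, chr17:41624192-41624251), KRT15 (minus strand, chr17:41518447-41518506), KRT18 (plus strand, chr12:52949420-52949479) and KRT20 (minus strand, chr17:40884910-40884969).
KRT19: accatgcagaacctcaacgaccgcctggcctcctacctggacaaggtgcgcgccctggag
KRT17: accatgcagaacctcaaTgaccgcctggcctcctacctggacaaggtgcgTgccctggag
KRT15: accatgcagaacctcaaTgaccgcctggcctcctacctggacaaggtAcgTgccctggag
KRT23: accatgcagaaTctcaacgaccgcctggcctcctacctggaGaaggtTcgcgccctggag
KRT18: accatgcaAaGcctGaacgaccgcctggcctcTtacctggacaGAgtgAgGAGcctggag
KRT20: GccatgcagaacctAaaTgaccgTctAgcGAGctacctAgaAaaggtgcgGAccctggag
KRT17 differs from KRT19 at 2 of these bases, KRT15 and KRT23 at 3 each, KRT18 at 10 and KRT20 at 12. Over longer stretches, no run of 100 coding bases of a member occurs exactly, on the same strand, in a transcript of another protein-coding gene. Runs with mismatches were not counted and untranslated parts of the members were not searched. This count therefore cannot show that reads were told apart. For KRT8, 8.87% of its 100-base runs occur in annotated pseudogene transcripts, for KRT17 0.417%, and for the other members 0%. GENCODE 29 names 50 pseudogenes of KRT8, 67 of KRT18, 8 of KRT17 and 5 of KRT19. The sources used here do not say how the counting treated reads from them.

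The levels of the 9 genes fell in a steep order, which TPM allows to be compared between genes because it is corrected for length. In WT, KRT19, KRT18 and KRT8 ranged from 1101 to 1904 TPM, KRT7 near 330, KRT15, KRT80 and KRT23 between 36 and 50, and KRT17 and KRT20 near 5. The ranges of the 3 samples did not overlap between neighbours in that order, except for KRT17 and KRT20, whose order held in 2 of 3 WT samples. In WT the lowest KRT19 sample (1801 TPM) was just above the highest KRT18 sample (1799 TPM). In CSE no neighbours overlapped, the top 4 kept their places, KRT23 took the fifth place ahead of KRT15 and KRT80, and KRT17 came last.

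**Figure D1:**
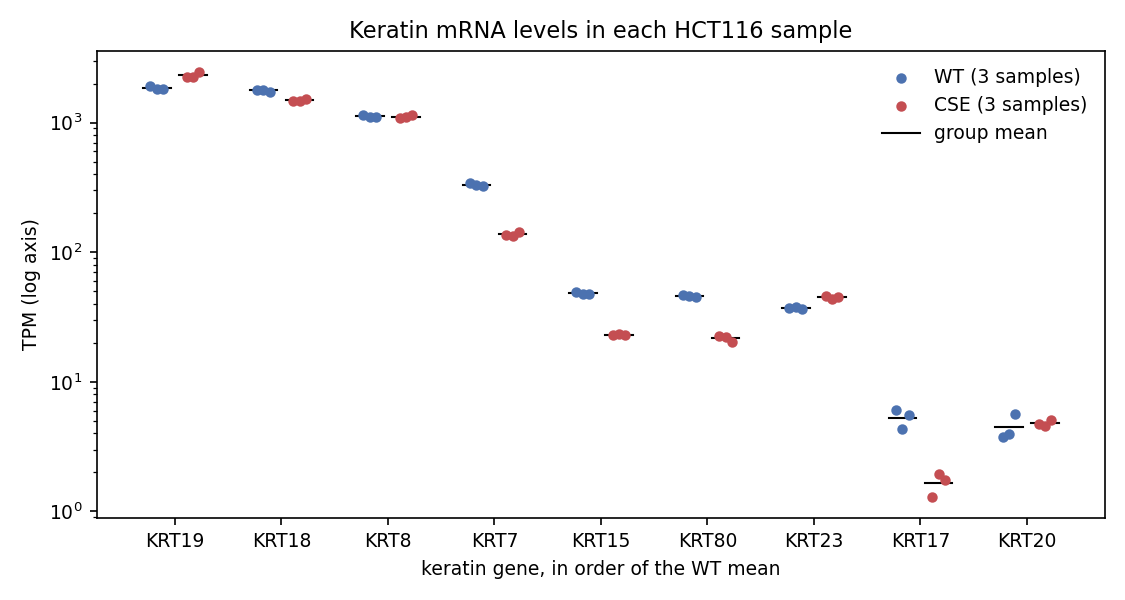
TPM of the 9 keratins on a log axis, with 1 point per sample (3 WT, 3 CSE) and a line at each group mean. KRT7, KRT15, KRT80 and KRT17 sit clearly lower in CSE, KRT19 and KRT23 sit slightly higher, and the points of KRT8 and of KRT20 overlap between the groups.

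Among the 9 keratins, KRT19 and KRT23 were higher with CSE, KRT7, KRT18, KRT15, KRT17 and KRT80 were lower, and KRT8 and KRT20 were not called. In the fit over all 12793 genes with at least 1 TPM in at least 3 libraries (limma on log2(TPM + 1), adjusted p under 0.05), 2 members were called higher and 5 lower, beside 24.5% of all genes tested called higher and 25.6% lower (50.1% in all). All 9 members passed the filter on low values, with at least 1 TPM in each of the 6 libraries. The median log2 fold change was -0.25 over the members and -0.0039 over all genes tested. Because the list was made with this contrast known, nothing is read from these counts. Each log2 fold change below is the CSE mean minus the WT mean of log2(TPM + 1), a scale that understates changes at low TPM.

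The most abundant simple keratins, KRT19, KRT18 and KRT8, differed by at most 1.27-fold, and KRT19 and KRT18 moved in opposite directions. KRT19, a small type I keratin without the usual tail domain (ENSG00000171345, chromosome 17, 41523617 to 41528308), stood at 1904, 1814 and 1801 TPM in WT replicates 1 to 3 and at 2261, 2264 and 2456 TPM in CSE replicates 1 to 3. Every CSE sample was above every WT sample, with CSE replicate 3 the highest. The mean went from 1840 ± 56.3 to 2327 ± 112 TPM (SD, n = 3 each), 1.27-fold, with a log2 fold change of 0.34 (SE 0.0407).

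KRT18, the type I partner of KRT8 (ENSG00000111057, chromosome 12, 52948871 to 52952901), was at 1799, 1775 and 1734 TPM in WT and at 1467, 1465 and 1530 TPM in CSE. Here every CSE sample was below every WT sample. The mean fell from 1769 ± 32.5 to 1488 ± 37.2 TPM (SD, n = 3 each), 1.19-fold, a log2 fold change of -0.25 (SE 0.0368). KRT8, the type II partner (ENSG00000170421, chromosome 12, 52897187 to 52949954), read 1145, 1112 and 1101 TPM in WT and 1093, 1097 and 1136 TPM in CSE. Its groups overlapped, the means were 1119 ± 22.7 and 1108 ± 23.5 TPM (SD, n = 3 each), and the 95% interval of its log2 fold change was -0.089 to 0.061. That interval does not show that KRT8 stayed the same: the gene was called lower under quantile normalization (-0.11), and likewise once genes of the mitochondrial genome were removed and the rest rescaled (-0.072). The gene models of KRT8 and KRT18, introns included, lie on opposite strands and overlap by 1084 bases. Whether their exons overlap was not examined, and some reads there may not be told apart if strand was not used.

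KRT7, the type II keratin of ductal and glandular epithelia (ENSG00000135480, chromosome 12, 52232520 to 52252186), showed the largest change of the 9 genes on this scale. It was at 339, 327 and 324 TPM in WT and at 137, 134 and 143 TPM in CSE, so the groups lay far apart. The mean fell from 330 ± 7.79 to 138 ± 4.39 TPM (SD, n = 3 each), 2.40-fold lower, with a log2 fold change of -1.25 (SE 0.0386). Of all genes tested, 20 (0.156%) changed at least as far in either direction. The gene model of KRT7 overlaps that of its antisense transcript KRT7-AS by 2401 bases and that of KRT86 by 2887 bases.

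KRT20, a type I keratin of differentiated enterocytes and goblet cells (ENSG00000171431, chromosome 17, 40875941 to 40885227), was low throughout. It stood at 3.75, 3.98 and 5.68 TPM in WT and at 4.69, 4.55 and 5.09 TPM in CSE, and WT replicate 3 was higher than every CSE sample. Its log2 fold change was 0.094 (SE 0.0998) and was not called. Without WT replicate 3 it was 0.25 and was called higher, so the reading of KRT20 rests on that sample.

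The stratified and stress keratins both went down. KRT15 (ENSG00000171346, chromosome 17, 41513743 to 41522529) was at 49.2, 47.5 and 47.3 TPM in WT and at 22.9, 23.4 and 23.0 TPM in CSE. The groups were far apart and tight, and the mean fell from 48.0 ± 1.03 to 23.1 ± 0.299 TPM (SD, n = 3 each), 2.08-fold lower, a log2 fold change of -1.03 (SE 0.0463).

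KRT17 (ENSG00000128422, chromosome 17, 41619441 to 41624842) was at 6.03, 4.34 and 5.53 TPM in WT and at 1.3, 1.94 and 1.76 TPM in CSE. It showed the largest ratio of the 9 genes at 3.18-fold lower, from 5.30 ± 0.868 to 1.67 ± 0.330 TPM (SD, n = 3 each). At this low level the log2 fold change depends on the pseudocount, being -1.24 (SE 0.105) with 1 and -1.62 with 0.1.

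The other pair split in direction. KRT80 (ENSG00000167767, chromosome 12, 52168996 to 52192000) was at 47.1, 45.8 and 45.2 TPM in WT and at 22.4, 22.2 and 20.2 TPM in CSE, without overlap. Its mean fell 2.13-fold, from 46.0 ± 0.958 to 21.6 ± 1.23 TPM (SD, n = 3 each), a log2 fold change of -1.06 (SE 0.0506). KRT23 (ENSG00000108244, chromosome 17, 40922696 to 40937634) was at 36.8, 37.7 and 36.3 TPM in WT and at 45.9, 43.9 and 44.7 TPM in CSE, again without overlap but in the opposite direction. Its mean rose 1.21-fold, from 36.9 ± 0.749 to 44.8 ± 1.00 TPM (SD, n = 3 each), a log2 fold change of 0.27 (SE 0.0451). Of the 9 genes, 7 had groups that did not overlap, beside 57.4% of all genes tested, and 4 (KRT7, KRT17, KRT80 and KRT15) changed by at least 1 on the log2 scale, beside 0.383% of all genes tested.

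**Figure D2:**
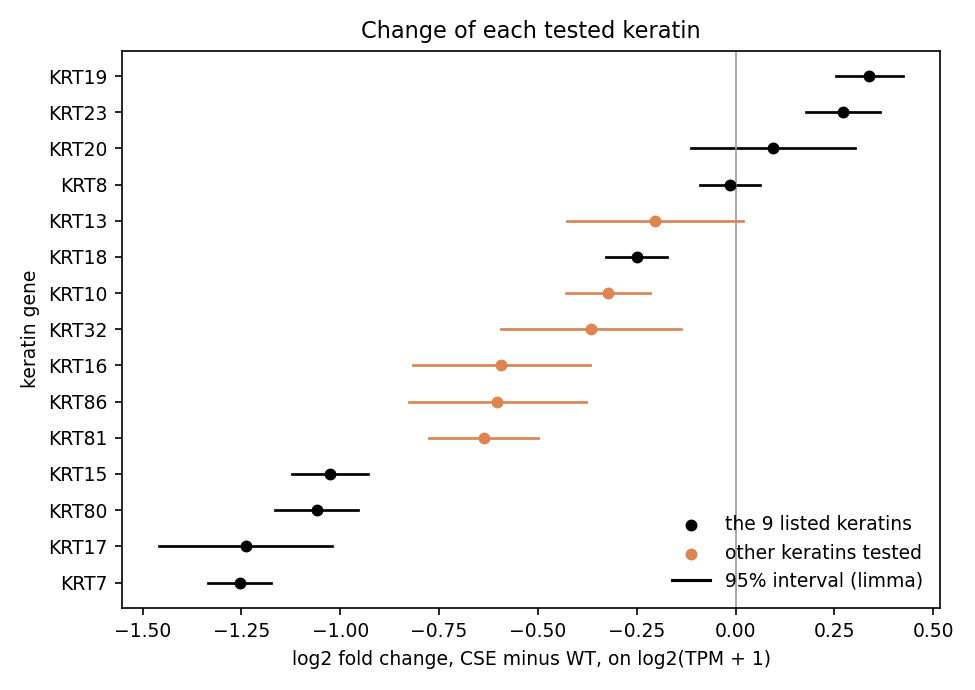
Log2 fold change of each tested keratin, the difference of mean log2(TPM + 1) between CSE and WT, with the 95% interval from limma; black marks the 9 listed keratins and orange the other 6 tested. KRT19 and KRT23 lie above 0, the intervals of KRT20, KRT8 and KRT13 cross it, and the remaining 10 keratins lie below it.

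The summed level of the 9 keratins differed little, while its composition shifted. Their TPM summed to 5330, 5167 and 5101 in WT and to 5056, 5056 and 5360 in CSE, about 0.5% of each library. The groups overlapped, the means were 5199 ± 118 and 5157 ± 175 TPM (SD, n = 3 each), and CSE replicate 3 had the highest sum of the 6 samples. With mitochondrially encoded genes left out and the rest rescaled, the log2 ratio of the sums was -0.070 in place of -0.012. Shares of that sum do not depend on the scaling of a library, and no test was run on them because the members were chosen with results known.

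Of the members' TPM, KRT19 made up 35.7%, 35.1% and 35.3% in the WT samples against 44.7%, 44.8% and 45.8% in the CSE samples, a gain of 9.73 percentage points in the mean. For KRT18 the shares were 33.7%, 34.4% and 34.0% against 29.02%, 28.97% and 28.56%. KRT7 made up 6.36%, 6.33% and 6.36% against 2.70%, 2.65% and 2.66%. In all 3 cases the groups did not overlap and the shift was larger than the spread within either group. KRT8 held a like part of both, with means of 21.5% ± 0.0537 in WT and 21.5% ± 0.274 in CSE (SD, n = 3 each).

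**Figure D3:**
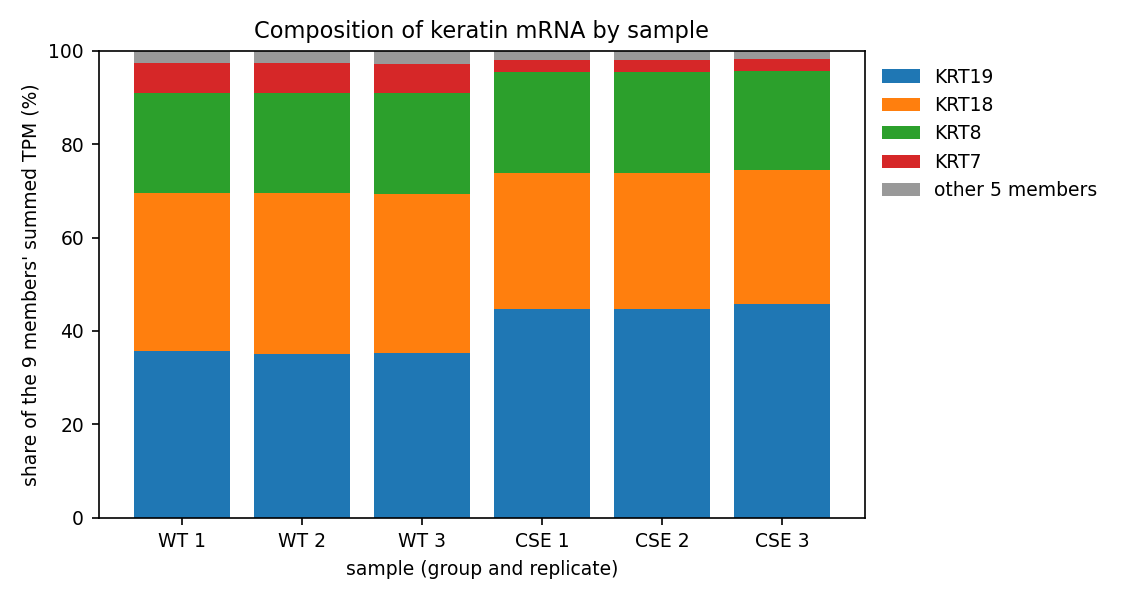
Share of the 9 keratins' summed TPM held by KRT19, KRT18, KRT8, KRT7 and the other 5 members together, as stacked bars in percent for each of the 6 samples. KRT19 takes 35.1% to 35.7% of the bar in WT and 44.7% to 45.8% in CSE, while the bands of KRT18 and KRT7 are narrower in CSE and that of KRT8 is of like width.

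Ratios between members showed the same shift within each sample. KRT19 and KRT18 mRNA were nearly equal in WT, at a KRT19 to KRT18 ratio of 1.04 ± 0.0185, and apart in CSE, at 1.56 ± 0.0355 (SD, n = 3 each). The ratio of KRT18 to KRT8, the founding pair, was 1.58 ± 0.0134 in WT and 1.34 ± 0.00605 in CSE. Type I members together outweighed type II members 2.48 ± 0.00726 to 1 in WT and 3.07 ± 0.0530 to 1 in CSE. The type II sum went from 1495 ± 31.5 to 1268 ± 26.4 TPM and the type I sum from 3704 ± 86.3 to 3889 ± 149 TPM (SD, n = 3 each). KRT7 carried most of the type II difference in these TPM values. The means went from 330 to 138 TPM for KRT7, from 1119 to 1108 for KRT8 and from 46.0 to 21.6 for KRT80.

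By class, the 5 simple keratins summed to 5063 ± 115 TPM in WT and 5066 ± 177 in CSE, with overlapping groups. Within the class 1 gene was higher, 2 were lower and 2 were not called. KRT15 and KRT17 together summed to 55.2, 51.9 and 52.9 TPM in WT and to 24.2, 25.4 and 24.7 TPM in CSE, 2.15-fold lower. They made up 1.03% ± 0.0188 of the members' TPM in WT and 0.480% ± 0.0201 in CSE (SD, n = 3 each). A fall of similar size was seen in KRT7, a simple keratin, and in KRT80, so the larger falls were not particular to the stratified and stress class.

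The 46 keratins outside the list were mostly near 0, and 5 of the 6 that could be tested were lower in CSE. Of the 46, 40 did not reach 1 TPM in 3 libraries, 7 of them listed at 0 throughout. Of the 6 tested, 5 fell, 0 rose and 1 did not pass (median log2 fold change -0.48), beside the 25.6% of all genes called lower. Without the filter on low values 39 were tested, of which 12 were lower, 1 was higher (KRT222) and 26 were not called, with a median of -0.073. Over all 17857 genes tested without the filter, 3122 were called lower and 2827 higher, with a median of -0.0099.

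KRT81, a hair keratin, was at 11.3, 10.98 and 9.97 TPM in WT and at 6.33, 6.65 and 6.64 TPM with CSE; the change was -0.64 (limma adjusted p = 7.79e-08). KRT10, the type I keratin of differentiated epidermis, was the most abundant of them and fell from 63.4 ± 5.33 to 50.4 ± 1.52 TPM (-0.32, limma adjusted p = 2.44e-05). KRT16, which like KRT17 is induced by wounding in skin, went from 2.02 ± 0.223 to 1.01 ± 0.254 TPM (-0.59). KRT16 is counted among the keratins that fell, but its WT samples alone met the filter, its CSE samples being at 1.3, 0.83 and 0.9 TPM. No p is given for KRT16 for that reason. The groups of all 3 genes were apart. KRT86, another hair keratin, fell from 2.70 to 1.44 TPM (-0.60, limma adjusted p = 8.68e-05); KRT81 and KRT86 are similar in sequence, and reads may be split between them. KRT32 was called lower (-0.37, limma adjusted p = 0.0086), but its groups overlapped and the call was lost without WT replicate 1 (-0.33), without CSE replicate 2 (-0.25) and with quantile normalization (-0.31). KRT13 went from 3.00 to 2.45 TPM (-0.20, limma adjusted p = 0.12) and was called lower without WT replicate 2 (-0.30). Outside the list, the keratins summed to 91.0 ± 6.73 TPM in WT and 67.3 ± 1.77 in CSE (SD, n = 3 each).

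Neighbouring keratin genes moved together in places and apart in others. Keratin genes form a cluster of type II genes, with KRT18 at its end, on chromosome 12 and a cluster of type I genes on chromosome 17. At one end of the chromosome 12 cluster, the neighbours KRT80, KRT7, KRT86 and KRT81 were all lower in CSE. KRT7, KRT86 and KRT81 may not be independent measurements, because their gene models, introns included, overlap in turn. Whether their exons overlap or reads are shared was not examined. The KRT86 model shares 2887 bases with that of KRT7 on the same strand, at a mean under 3 TPM against 330 for KRT7 in WT. The KRT81 model lies within that of KRT86 on the opposite strand. KRT80 lies 40519 bases from KRT7, without overlap. At the other end KRT8 was not called beside KRT18, which was lower by 0.25 on the log2 scale. On chromosome 17 the neighbours KRT15 and KRT19 are 1087 bases apart, on the same strand, and moved in opposite directions. KRT16 and KRT17, which are 3541 bases apart, were both lower.

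**Figure D4:**
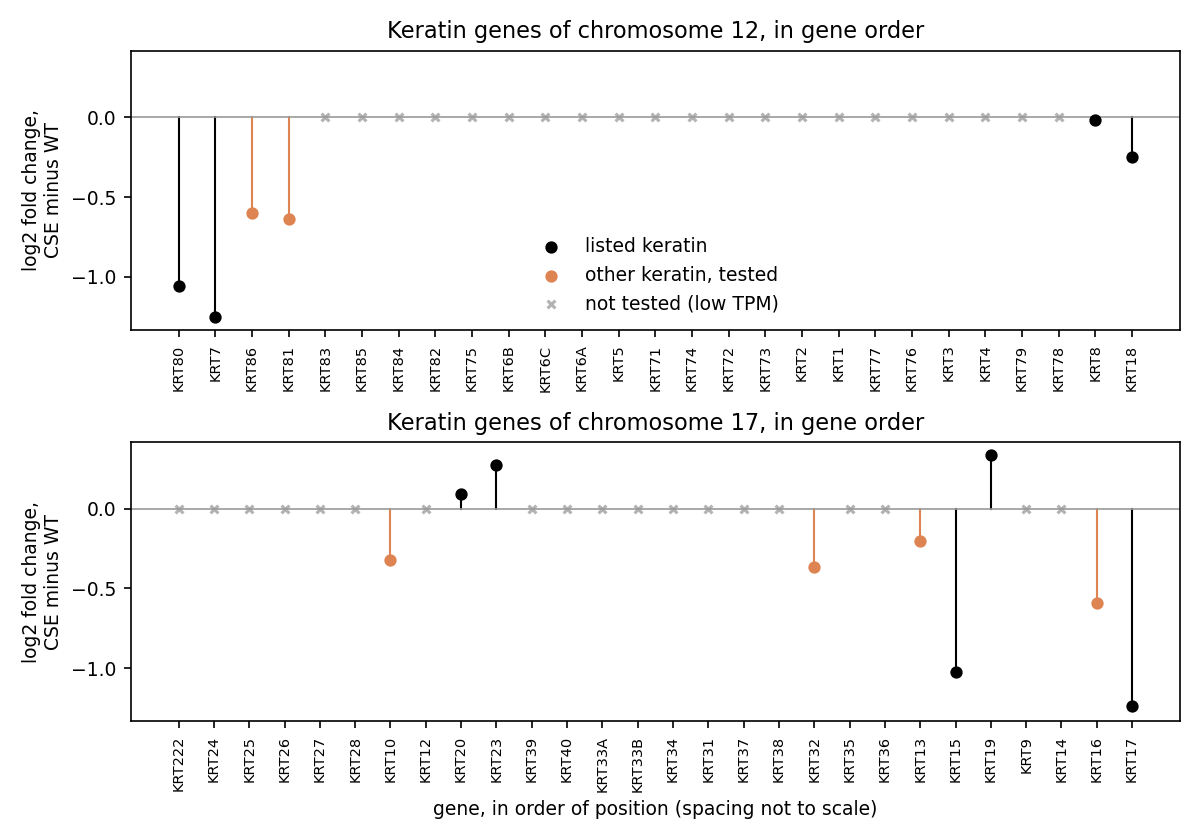
Log2 fold change, CSE minus WT, of the keratin genes of chromosomes 12 and 17 in order of position, spacing not to scale; black points are the listed keratins, orange points other tested keratins, and crosses at 0 are genes too low to test. The 4 genes at the left of chromosome 12 lie below 0, and KRT15 and KRT19 on chromosome 17 stand next to each other on opposite sides of 0.

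Keratin filaments end at desmosomes and hemidesmosomes, where plakins and plakophilins link them to cadherins and integrins. Genes of these anchors mostly rose. This list, like those that follow, was chosen with earlier results of these data known, so its counts describe and support nothing further. Of 22 in the list 16 were tested: 10 rose, 0 fell and 6 did not pass (median log2 fold change 0.24, beside -0.0039 for all genes and 24.5% called higher). The plakins EVPL (30.9 to 45.2 TPM; 0.54, limma adjusted p = 1.46e-08) and PPL (93.3 to 131 TPM; 0.48, limma adjusted p = 8.29e-09) and the desmosomal cadherin DSC2 (7.02 to 10.6 TPM; 0.53, limma adjusted p = 7.9e-07) rose most. The count of 10 was the same in every alternative setting. ITGA6 and PERP, named after their values were seen, were called lower under quantile normalization (-0.12 and -0.10), and again with mitochondrially encoded genes left out (-0.14 and -0.090).

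Of 15 other intermediate filament genes 8 were tested, and 2 rose, 3 fell and 3 did not pass (median -0.05), beside 24.5% of all genes called higher and 25.6% lower. LMNA, which encodes the A-type lamins of the nuclear envelope, rose from 279 ± 14.5 to 402 ± 4.45 TPM (SD, n = 3 each; 0.53, limma adjusted p = 5.61e-10), and the B-type lamin gene LMNB1, which like SYNM was named after its value was seen, rose from 59.8 to 84.4 TPM (0.49, limma adjusted p = 3.49e-09). DES, a muscle filament gene, fell from 6.67 to 3.98 TPM (-0.62, limma adjusted p = 8.41e-07), PRPH, a neuronal one, from 11.01 to 7.02 TPM (-0.58, limma adjusted p = 1.89e-07), and SYNM from 8.70 to 6.43 TPM (-0.38, limma adjusted p = 0.000282). VIM, the filament gene of mesenchymal cells, was not tested, at 0.52 to 0.77 TPM in WT and 0.80 to 1.14 TPM in CSE. Of 13 tested genes for proteins that bind, modify or turn over keratins, 2 rose, 1 fell and 10 did not pass (median -0.085), beside 50.1% of all genes called. SFN, the 14-3-3 sigma protein, fell from 743 ± 25.5 to 546 ± 22.9 TPM (SD, n = 3 each; -0.45, limma adjusted p = 7.17e-09), and CSNK1A1, a casein kinase that acts on keratin filament organisation, rose from 96.6 to 112 TPM (0.21, limma adjusted p = 0.000154). YWHAZ, the 14-3-3 zeta gene, was called higher (0.13, limma adjusted p = 0.00511). The call was lost under quantile normalization (0.053), and likewise with mitochondrially encoded genes left out (0.069). In the latter setting the list had 8 genes lower and 1 higher, beside 4489 lower and 2343 higher of all 12780 genes tested.

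Of 24 tested transcription factor genes of epithelia, 5 rose, 5 fell and 14 did not pass (median -0.014), beside 24.5% of all genes called higher and 25.6% lower. With mitochondrially encoded genes left out 2 rose and 9 fell, beside 2343 higher and 4489 lower of all 12780 genes tested. Without the filter 2 rose and 5 fell, beside 2827 higher and 3122 lower of 17857. ETS1 fell furthest, from 30.6 to 16.8 TPM (-0.83, limma adjusted p = 3.66e-11), followed by KLF3 from 34.8 to 27.1 TPM (-0.35, limma adjusted p = 1.14e-05). HNF4G, a low-level intestinal nuclear receptor gene, rose from 0.843 to 1.36 TPM (0.36). HNF4G is counted among the genes that rose, but its CSE samples alone met the filter, its WT samples being at 0.71, 1.02 and 0.8 TPM. No p is given for HNF4G for that reason. The other calls, named after their values were seen, were KLF4, KLF6 and RUNX1 lower and SP3, GRHL3, CDX2 and EHF higher. The calls of GRHL3, CDX2 and EHF were each lost in several alternatives, among them no filter and mitochondrially encoded genes left out, and the groups of EHF overlapped. Of 8 tested AP-1 subunit genes 5 fell, 1 rose and 2 did not pass (median -0.28), beside 25.6% of all genes called lower. JUN fell from 125 to 46.7 TPM (-1.40, limma adjusted p = 1.2e-16), ATF3 from 88.3 to 57.0 TPM (-0.62, limma adjusted p = 1.08e-09) and FOS from 88.4 to 59.9 TPM (-0.55, limma adjusted p = 1.32e-09). FOSB and JUND were the other calls lower and JUNB the call higher, again named after their values were seen.

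Squamous differentiation genes other than keratins were scarce, with 7 of 24 tested. Of these, SPRR2D and SPRR1A passed the filter through the WT samples alone, so they had to differ to be tested; they are left out of the count, and no p is given for them. Of the other 5, 2 rose and 3 fell (median -0.25), beside 24.5% of all genes called higher and 25.6% lower. SPRR2D, a cornified envelope precursor gene, was at 2.83, 3.03 and 2.87 TPM in WT and at 0.21, 0.43 and 0.34 TPM in CSE. SPRR1A was at 1.00, 1.18 and 1.34 TPM in WT and at 0, 0.13 and 0.26 TPM in CSE. CNFN, another cornified envelope gene, rose from 10.8 to 19.1 TPM (0.79, limma adjusted p = 2.53e-08). Of the other calls, named after their values were seen, S100A2 was higher and CSTA, TGM1 and CDSN were lower. The call of TGM1 was lost in 4 alternatives, among them quantile normalization (-0.18) and leaving out WT replicate 1 (-0.25), WT replicate 3 (-0.22) or CSE replicate 2 (-0.18). That of CDSN, whose groups overlapped, was lost in 8, among them quantile normalization (-0.21) and leaving out WT replicate 1 (-0.16), WT replicate 2 (-0.28) or CSE replicate 3 (-0.17).

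**Figure D5:**
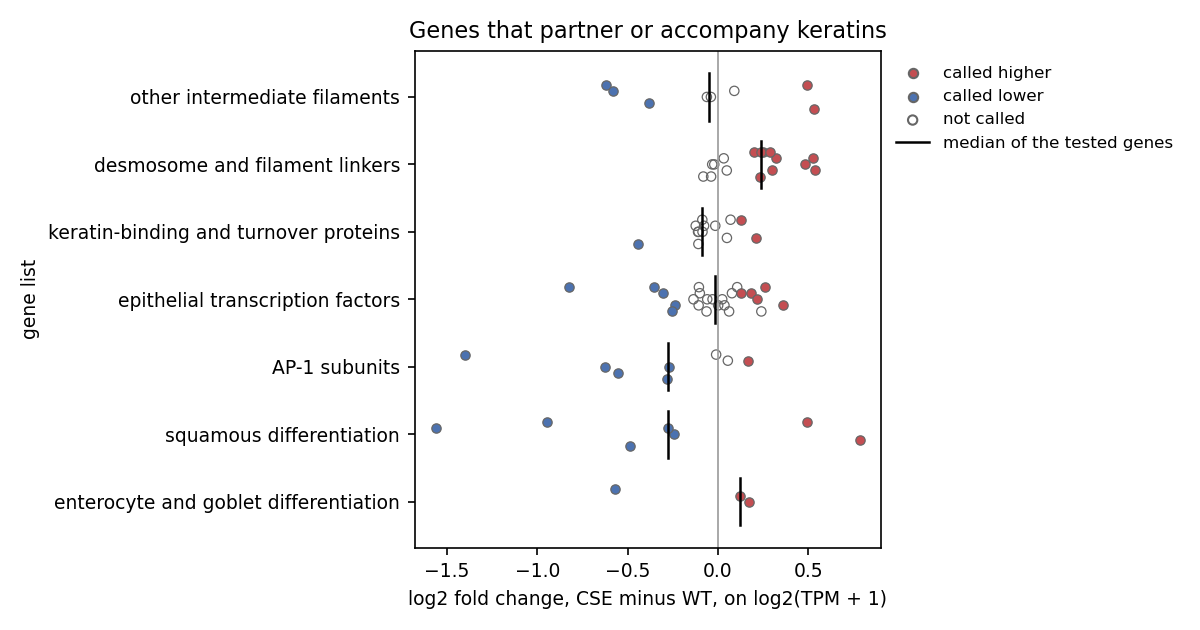
Log2 fold change between CSE and WT, from log2(TPM + 1), of each tested gene in 7 lists around the keratins; red points were called higher, blue lower, open points not called, and the line is the median of the tested genes. The desmosome and filament linker list has 10 red and 0 blue points, and the AP-1 list 5 blue and 1 red. In the squamous list, SPRR2D and SPRR1A, left out of the count in the text, are drawn in blue and enter the median line (-0.28).

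Markers of the cells were checked in the same libraries. All 12 epithelial markers were tested, with a summed level of 2260 to 2389 TPM in WT and 2235 to 2247 TPM in CSE; 5 rose and 3 fell (24.5% and 25.6% over all genes), among them CLDN7, which fell (-0.25, limma adjusted p = 1.63e-05) and CLDN3, which rose (0.28, limma adjusted p = 1.28e-05). Of 10 fibroblast markers 9 stayed under 1 TPM in every library, DCN and POSTN were listed at 0, and COL1A1, the exception, went from 43.8 to 37.3 TPM (-0.23, limma adjusted p = 0.00025). Of 12 blood and endothelial markers 9 stayed under 1 TPM, and CD68 went from 17.6 to 12.1 TPM (-0.50, limma adjusted p = 2.59e-07). The other markers of that list to reach 1 TPM were not tested: CD14 was at 0.85, 0.71 and 1.45 TPM in WT and 0.29, 0.08 and 0.39 TPM in CSE, and HBB at 0.21, 0.10 and 0.26 TPM in WT and 0.29, 2.45 and 1.91 TPM in CSE. Without the filter, 2 of these markers were called higher and 2 lower, beside 2827 higher and 3122 lower of all 17857 genes tested. The part of any of these markers in the keratin values was not tested. Genes listed for enterocyte and goblet differentiation were mostly absent: 19 of 22 stayed under 1 TPM, and FABP1, TFF3 and GUCA2A were listed at 0. Of the 3 tested CA2 fell (-0.57, limma adjusted p = 1.17e-09). KRTCAP3 (0.17, limma adjusted p = 0.00619) and EPCAM (0.12, limma adjusted p = 0.0144), which is also among the 12 epithelial markers, were called higher. Both calls were lost with mitochondrially encoded genes left out (0.11 and 0.062).

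The genes whose levels over the 6 samples ran most like those of KRT7, the member with the largest change on log2(TPM + 1), were MSLN, HSPA1B and KLK5, with Pearson's r of 0.9996, 0.9996 and 0.9995 on that scale. KRT17, with the larger ratio, would be that member at a pseudocount of 0.1. All 3 fell with CSE. With groups this far apart such values are common: 183 genes outside the keratins reached 0.99, and the 6 points share the same split into WT and CSE.

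The libraries differed in ways that touch these values. The second principal component of all genes set CSE replicate 3 (score -9.31) apart from CSE replicates 1 and 2 (4.35 and 5.70), and mitochondrially encoded genes held 27.0% to 30.2% of the WT and 25.5% to 25.8% of the CSE libraries. Without CSE replicate 3, 2 members were called higher and 5 lower, beside 3536 higher and 3037 lower of all 12793 genes tested. The rise of KRT19's share was then 9.38 percentage points and the log2 ratio of the summed members was -0.040. Whether the mitochondrial share, or what it accompanies, plays a part in the differences between genes was not tested. Rescaling a library for that share leaves the shares and ratios among keratins as they are, but this holds for the rescaling only. Of the genes called over the whole table, 48.9% were higher, and the share was 34.3% after removing genes of the mitochondrial genome. These are mRNA levels in bulk samples, where fewer cells with a keratin and less of its mRNA per cell cannot be told apart.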

How the data were processed

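RNA-seq was done on 3 WT and 3 CSE-treated samples of HCT116, grouped and numbered by their titles. The authors deposited 1 table of TPM for 20263 genes, with 1 column for each sample. Per the labels' protocols, poly(A) libraries were made from Trizol-extracted RNA. GRCh38 and the tools HISAT2 2.0, Trimmomatic 0.36, bedtools 2.26.0 and FastQC 0.11.2 appear, without their roles, per the submitters' processing notes. For the counting program, annotation and strandedness, nothing is stated in the sources used here. TPM sums to the same total in every library, so depth is unknown and no counting interval or floor was computed.

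The members, classes and gene lists were chosen with earlier results of these data known. Symbols were matched by Ensembl gene ID for 20148 genes, and positions and transcript sequences come from GENCODE 29. Genes with at least 1 TPM in at least 3 libraries (12793) were compared as log2(TPM + 1) with limma 3.58.1 in R 4.3.3 (empirical Bayes with a mean-variance trend), with Benjamini-Hochberg adjustment over all genes and a threshold of 0.05. The procedure was tested on simulated data. No p is printed for the 9 members. Named besides them are every other keratin with a group mean of at least 1 TPM, the 3 called genes of each list with the largest change and a mean of at least 1 TPM, and the 3 genes most like the member that changed most on that scale. Other genes were named after their values were seen. The alternatives tried were quantile normalization, median-of-ratios scaling, leaving out mitochondrially encoded genes, a pseudocount of 0.1, dropping the filter or raising it to a mean of 5 TPM, other variance priors, the replicate number as a block, other classes and denominators, and each sample left out. A stretch of sequence and a marker gene are not reported here.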

Additional observations from a re-analysis of the deposited data

How the results depend on the processing

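KRT7, KRT18, KRT15, KRT17 and KRT80 stayed called lower, and KRT19 and KRT23 called higher, in every alternative in which they were tested; KRT17 was not tested at a mean TPM of at least 5. The log2 fold changes ran from -1.31 to -1.23 for KRT7, -0.32 to -0.24 for KRT18, -1.09 to -1.01 for KRT15, -1.62 to -1.14 for KRT17, -1.13 to -1.01 for KRT80, 0.22 to 0.36 for KRT19 and 0.22 to 0.29 for KRT23. KRT8 ran from -0.11 to 0.0024 and KRT20 from 0.0011 to 0.25. Other keratins called lower numbered 12 (and 1 higher) without the filter and 2 at a mean TPM of at least 5, because that choice sets how many are tested. Over all genes, 3122 of 17857 were called lower without the filter and 2811 of 10670 at that mean. Leaving out each sample in turn gave 4 to 6 other keratins called lower, beside 2601 to 3207 of all 12793 genes tested. With mitochondrially encoded genes left out, the log2 ratio of CSE to WT was -0.070 for the summed members, -0.057 for the simple keratins and -1.16 for the stratified and stress keratins, since the rescaling lowers every other gene of CSE relative to WT. As a share of all keratins, the fall of KRT7 was -3.60 percentage points. Leaving out each sample in turn moved the gain of KRT19's share between 9.38 and 9.93 percentage points. Genes of the other lists called higher numbered 28 and lower 30, and 21 and 45 with mitochondrially encoded genes left out. These lower counts, and that with the replicate block, include SPRR2D and SPRR1A, which had to differ to be tested. With the replicate block, 2 members were called higher and 5 lower, and 28 and 31 genes of the other lists. Over all 12793 genes tested, 3130 were called higher and 3277 lower, and 3188 and 3349 with the replicate block. With mitochondrially encoded genes left out, 2343 of 12780 were called higher and 4489 lower. Same-numbered samples did not deviate together (correlations of -0.071, 0.015 and -0.088), beside -0.089 to 0.12 for differently numbered samples. Whether same-numbered samples were prepared together cannot be told from these values. Depth is unknown, which limits what can be said of KRT17, KRT20 and other genes near 1 TPM.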
